A study of Mus musculus with 24 samples.

Results

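The mouse major histocompatibility complex (MHC), named H2 in this species, was followed across 2 tissues, liver and duodenum, in the mouse strains C57BL/6 (B6) and DBA/2 (D2), each with and without a disrupted Hfe gene. Members were chosen by name alone. They are the probe sets whose gene symbol in the array annotation begins with H2-, together with those of B2m, Cd74, Ciita, Tap2 and Tapbp. Of 45101 probe sets, 70 met this rule, 55 of them with 1 symbol and 15 with several, and they covered 39 distinct symbols. A probe set was kept for testing when its third-highest signal reached 20 in liver or in duodenum, which left 58 members. These 58 are not all members, since a probe set could pass on the strength of 1 group of mice alone. The 12 that did not pass were 1 probe set each of H2-Ea, H2-Eb2, Ciita, H2-D1, H2-D4, H2-M10.1, H2-M9 and H2-Q5, both probe sets of H2-Ob (1 shared with Gm20506), 1 shared by Gm38417, LOC547349 and H2-Bl, and 1 of the 2 shared by H2-T9, H2-T22 and H2-T10. By role, the 58 comprised 14 of the classical class I (class Ia) genes H2-K1 and H2-D1, with H2-Bl counted among them, and 17 of the class Ib genes of the Q, T and M regions, of which 2 also matched a class Ia gene. A further 5 belonged to the class I helpers B2m, Tap2 and Tapbp, 10 to class II chains, 11 to class II helpers and 1 to H2-Ke6, a gene within the complex whose product is a steroid dehydrogenase.

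MHC class I molecules consist of a heavy chain and beta-2-microglobulin (B2m) and are carried by nearly all nucleated cells. Peptides cut by the proteasome enter the endoplasmic reticulum through the TAP transporter, of which Tap2 is a subunit, and tapasin (Tapbp) holds empty class I molecules at that transporter. Class II molecules are pairs of alpha and beta chains (H2-Aa with H2-Ab1, H2-Ea with H2-Eb1) made mostly by B cells, dendritic cells and macrophages, and by intestinal epithelium to a varying degree. Their transcription depends on Ciita, Cd74 is the invariant chain that fills the new groove, and H2-DM removes its remnant in exchange for peptide. B6 mice carry the H2-b haplotype and D2 mice the H2-d haplotype. The alleles of the 2 haplotypes differ in sequence, so that a probe designed on one allele can pair poorly with the other, and H2-b mice are known to make no E alpha chain because their H2-Ea promoter is deleted. The H2-d haplotype is also known to carry a class I gene close to H2-D1, H2-L, which no member is named for. Hfe, the gene that is disrupted here, is itself a class I-like protein that pairs with B2m and takes part in iron sensing.

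Each of 12 male mice aged 7 weeks gave a liver and a duodenum, and each tissue was hybridized to an array of its own, 24 arrays in 8 groups of 3. The 4 kinds of mice were wild-type B6, Hfe-/- B6, wild-type D2 and Hfe-/- D2, all on the same diet and fasted before they were killed. The Hfe-/- mice were bred in the animal house of the study while the wild-type mice came from a breeder, so that origin and genotype cannot be told apart. RNA of whole tissue was measured, in which fewer cells of a type and less RNA per cell cannot be told apart.

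Hfe itself (1422645_at) had a mean signal of 683 in wild-type and 91.4 in Hfe-/- B6 liver, and of 462 and 78.7 in D2 liver, with no overlap between genotypes. In duodenum the means were 89.4 and 22.3 in B6 and 99.2 and 36.3 in D2. Hepatocyte markers averaged 13.2 to 13.7 on the log2 scale on liver arrays and 5.87 to 7.54 on duodenum arrays, and enterocyte markers 11.8 to 12.4 on duodenum arrays and 4.34 to 6.07 on liver arrays. Liver arrays were hybridized in 4 runs and duodenum arrays in 2 runs, 1 of which was shared between the tissues. All wild-type B6 duodenum arrays were in one run and all D2 duodenum arrays in the next, so that strain and run cannot be told apart in wild-type duodenum. Arrays 2 and 3 of D2 Hfe-/- duodenum stood apart in pancreatic acinar markers, with list means of 6.14 and 7.66 against 10.2 to 13.2 on the other 10 duodenum arrays.

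The class Ia genes showed the largest strain differences in liver, and probe sets of one gene disagreed on their direction. H2-K1 and H2-D1 encode the heavy chains that present most viral and tumour peptides to CD8 T cells. Their promoters are shown because the genes share an upstream control region almost letter for letter. The stretches are from the B6 reference genome (RefSeq, GRCm38.p6), 80 bases each, and begin 130 bases before the annotated start of H2-K1 and 190 bases before that of H2-D1. The first run of capitals is GGGATTCCC, the centre of the kappa B site, and the second is GTTTCACTT, part of the interferon response site.
H2-K1, chr17:34000398-34000477, minus strand: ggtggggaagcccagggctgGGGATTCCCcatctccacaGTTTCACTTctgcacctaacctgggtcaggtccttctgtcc
H2-D1, chr17:35262904-35262983, plus strand: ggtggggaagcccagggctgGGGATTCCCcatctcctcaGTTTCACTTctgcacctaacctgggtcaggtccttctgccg
On either strand, GGGATTCCC occurred in 0.301% of 32851 RefSeq promoter windows of 250 bases and in those of 4 of the 25 member symbols with a window (H2-D1, H2-K1, H2-Q6 and H2-Q7). GTTTCACTT occurred in 0.338% of windows and in 9 member symbols. D2 sequence was not used here, and a match is a description of the letters only.

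A group of 3 H2-D1 probe sets behaved as all or none by strain. On 1425614_x_at the liver signals were 15.5, 12.1 and 9.93 in wild-type B6, 18.8, 12.6 and 14.9 in Hfe-/- B6, 3086, 2641 and 2835 in wild-type D2, and 2296, 2725 and 2663 in Hfe-/- D2. In duodenum they were 0.394, 7.13 and 3.68 in wild-type B6, 11.8, 8.31 and 9.59 in Hfe-/- B6, 3067, 2166 and 2682 in wild-type D2, and 1918, 1529 and 1798 in Hfe-/- D2. Every B6 array lay under a signal of 20 and every D2 array above 1500. Set against a signal of 20, wild-type D2 was at least 142-fold higher in liver (limma adjusted p = 4e-13) and at least 131-fold higher in duodenum (limma adjusted p = 1.9e-06). On 1427651_x_at the B6 signals ran from 2.86 to 17.3 and the D2 signals from 1885 to 3596, and on 1452544_x_at from 0.822 to 25.3 and from 1892 to 3960. These 3 probe sets were at least 142-fold, 144-fold and 154-fold higher in wild-type D2 liver, with the same direction in Hfe-/- mice and in duodenum.

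Other H2-D1 probe sets gave a far smaller difference. The brightest, 1425545_x_at, read 4175, 4121 and 3970 in wild-type B6 liver and 5499, 5455 and 5802 in wild-type D2 liver. In Hfe-/- liver it read 3548, 3088 and 3826 in B6 and 4837, 5477 and 5153 in D2. D2 was higher without overlap, by 0.45 ± 0.09 on the log2 scale in wild-type liver (standard error, n = 3 mice per group, limma adjusted p = 0.0069) and by 0.57 ± 0.09 in Hfe-/- liver. All 12 D2 arrays of both tissues exceeded all 12 B6 arrays on this probe set. In contrast, 1450170_x_at was dimmer in D2, at 19.2, 33.3 and 42.9 in wild-type D2 liver against 76.9, 81.2 and 96 in wild-type B6 liver. That difference of -1.48 ± 0.33 missed the threshold in wild-type liver (limma adjusted p = 0.011) and passed it in Hfe-/- liver at -1.89 ± 0.33 (limma adjusted p = 0.0019). Of the 8 kept H2-D1 probe sets, 7 were called higher in D2 in at least 1 of the 4 sets of arrays (wild-type or Hfe-/- mice, liver or duodenum) and 1 was called lower. In at least 1 set, 9.53% of all probe sets kept were called. In wild-type liver alone the H2-D1 differences ran from -1.48 to the lower bound of 154-fold on 1452544_x_at, with 0.86 on 1426324_at, 0.79 on 1451683_x_at and 0.21 on 1451784_x_at between these ends.

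H2-K1 split as well, with 3 of its 4 kept probe sets called lower and 1 called higher in D2. On 1427746_x_at the wild-type liver signals were 4802, 5029 and 4173 in B6 and 1963, 1766 and 1795 in D2, and those of Hfe-/- liver 3719, 3618 and 3749 in B6 and 1500, 1714 and 1583 in D2. D2 was lower without overlap, by -1.34 ± 0.09 in wild-type liver (limma adjusted p = 1.8e-07) and by -1.21 ± 0.09 in Hfe-/- liver. The brightest H2-K1 probe set, 1425336_x_at, read 6426, 7331 and 5963 in wild-type B6 liver and 3534, 3544 and 3505 in wild-type D2 liver, a difference of -0.89 ± 0.10 (limma adjusted p = 4.4e-05). On 1451931_x_at the order was the opposite, with 2417, 2623 and 2274 in wild-type B6 liver and 3756, 3433 and 3702 in wild-type D2 liver. D2 was higher there by 0.58 ± 0.09 in liver (limma adjusted p = 5.1e-04) and by 0.86 ± 0.12 in duodenum (limma adjusted p = 6.3e-04). All 12 D2 arrays lay on one side of all 12 B6 arrays for each of these 3 probe sets. The probe set shared by H2-K1 and H2-D1, 1424948_x_at, was lower in D2 in all 4 sets, by -1.33 ± 0.10 in wild-type liver (3500, 3205 and 3389 in B6 against 1263, 1372 and 1394 in D2). The direction of a strain difference in H2-K1 or H2-D1 therefore depended on the probe set read. For a single probe set, the RNA level and the match of its probes to the allele cannot be told apart.

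**Figure D1:**
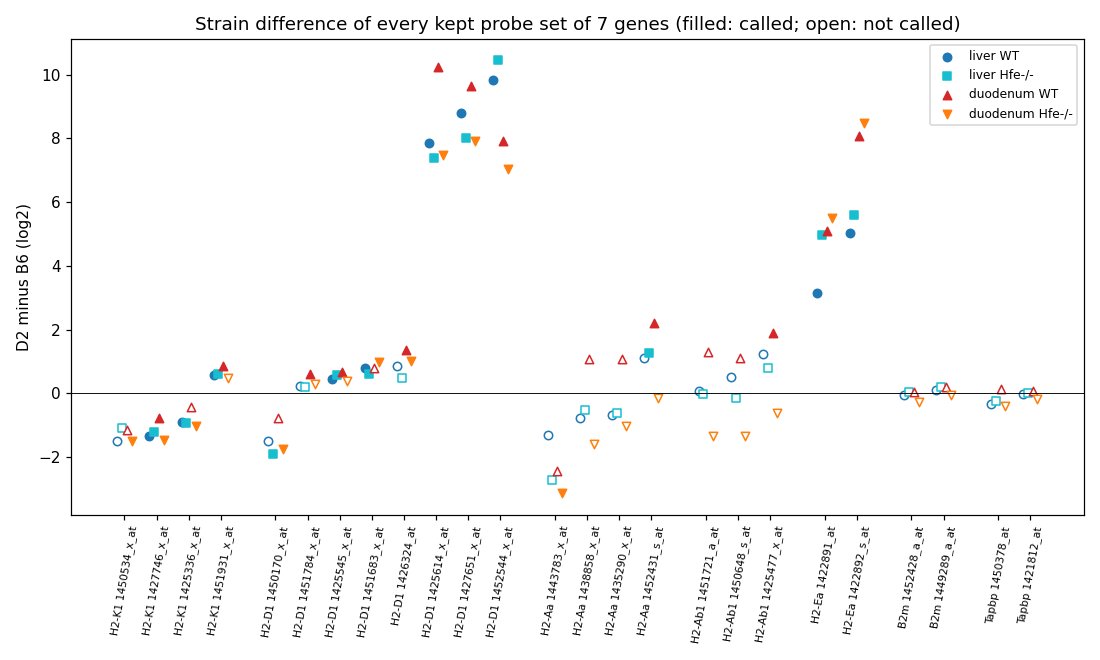
Difference between strains (D2 minus B6, log2) for every kept probe set of H2-K1, H2-D1, H2-Aa, H2-Ab1, H2-Ea, B2m and Tapbp, with circles for wild-type liver, squares for Hfe-/- liver, upward triangles for wild-type duodenum and downward triangles for Hfe-/- duodenum, filled where the difference was called. Fitted differences against a group under a signal of 20, as for the 3 highest H2-D1 probe sets in liver, have no exact size. Probe sets of H2-D1 spread from -1.48 upward in wild-type liver, while those of B2m and Tapbp stayed near 0.

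Class I helpers showed no called strain difference. B2m, the light chain of every class I molecule, lies outside the complex. Its brightest probe set, 1449289_a_at, read 10448, 10278 and 9684 in wild-type B6 liver, 10897, 7944 and 10462 in Hfe-/- B6, 11326, 10338 and 11052 in wild-type D2 and 10235, 12133 and 10984 in Hfe-/- D2. The 4 groups overlapped, and the strains differed by 0.11 ± 0.12 in wild-type liver (limma adjusted p = 0.71). Both B2m probe sets agreed on a small difference, from -0.06 to 0.11 in wild-type liver and from 0.04 to 0.19 in wild-type duodenum. For Tapbp (1421812_at) wild-type liver read 793, 864 and 718 in B6 and 767, 788 and 772 in D2, which overlapped (-0.03 ± 0.09). In Hfe-/- liver it read 615, 652 and 688 in B6 and 642, 594 and 718 in D2. Tap2 (1453913_a_at), a gene inside the complex, read 42.9, 70.3 and 48.2 in wild-type B6 liver and 67.6, 75.9 and 77.2 in wild-type D2 liver. In wild-type duodenum it read 190, 146 and 163 in B6 and 376, 215 and 321 in D2. D2 lay above B6 without overlap in wild-type duodenum, but the difference of 0.84 ± 0.22 missed the threshold (limma adjusted p = 0.036). In Hfe-/- duodenum it was 0.03 ± 0.22. In liver it was 0.48 in wild-type mice, where the strains overlapped, and 0.73 in Hfe-/- mice. Hfe-/- liver read 50.3, 43.4 and 43.1 in B6 and 77.1, 81.5 and 68.7 in D2, without overlap. Neither liver difference was called.

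Several class Ib genes were called between the strains in duodenum and not in liver. H2-T3 encodes a thymus leukemia antigen, a class Ib molecule known from intestinal epithelium that binds CD8 alpha homodimers. An 80-base stretch of its promoter, starting 147 bases before its annotated start, is shown with that of H2-Q10, starting 176 bases before the start, because the pair had opposite tissue patterns. Capitals mark GTTTCACTT in both. GGGATTCCC was in neither window.
H2-T3, chr17:36190219-36190298, minus strand: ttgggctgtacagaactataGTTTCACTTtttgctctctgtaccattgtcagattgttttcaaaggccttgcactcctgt
H2-Q10, chr17:35469913-35469992, plus strand: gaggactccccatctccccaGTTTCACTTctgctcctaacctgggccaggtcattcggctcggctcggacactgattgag
On 1427726_at, H2-T3 read 794, 517 and 807 in wild-type D2 duodenum and 648, 786 and 686 in Hfe-/- D2 duodenum. The other 18 arrays, from liver of both strains and from B6 duodenum, lay between 0.621 and 5.88. Wild-type D2 duodenum was at least 34.6-fold above wild-type B6 duodenum (limma adjusted p = 4.7e-06), and the strain difference differed between the tissues (limma adjusted p = 2e-04). The fitted size of that term, -8.57 ± 1.14 (liver minus duodenum), rests on signals under 20 and is not exact. A second H2-T3 probe set, 1452548_x_at, gave signal in B6 as well, at 187, 167 and 152 in wild-type B6 duodenum against 936, 706 and 1083 in wild-type D2, a difference of 2.41 ± 0.16 (limma adjusted p = 1.1e-06). Which transcript it read in B6 was not tested. The related H2-T18 (1460418_x_at) was bright in duodenum of both strains, at 549, 452 and 531 in wild-type B6 and 717, 589 and 540 in wild-type D2. The strains overlapped there, with a difference of 0.26 ± 0.44.

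H2-Q2, a class Ib gene of the Q region, showed the reverse. Its signals (1418734_at) were 1365, 1512 and 1272 in wild-type B6 duodenum and 1097, 1372 and 1156 in Hfe-/- B6 duodenum. D2 duodenum lay between 0.125 and 11.4 and all 12 liver arrays between 0.243 and 10.6. With 20 as the floor, B6 was at least 69-fold higher in wild-type duodenum (limma adjusted p = 7.5e-04) and at least 60.1-fold higher in Hfe-/- duodenum. The dependence of the strain difference on tissue just missed its threshold of 0.1 (limma adjusted p = 0.103). A probe set shared by H2-T-ps and H2-T23, of which H2-T23 encodes Qa-1, a ligand of the NKG2A receptor, gave the same pattern at a lower level. It read 80.9, 69.7 and 81.4 in wild-type B6 duodenum (1419658_at) and stayed under 20 in D2 duodenum and in liver, and its strain difference depended on tissue (limma adjusted p = 0.0063). The other probe set of the same symbols, 1449556_at, was bright in both strains, with 2238, 2311 and 2195 in wild-type B6 duodenum and 2776, 1822 and 2715 in wild-type D2 duodenum. These overlapped (0.09 ± 0.23), so that probe sets of the same symbols again differed.

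The other Q-region members were lower in D2 where they were called with 1 exception. The probe set shared by H2-Q9 and H2-Q7, which encode Qa-2 antigens, read 558, 720 and 426 in wild-type B6 liver and 112, 136 and 144 in wild-type D2 liver (1418536_at). D2 was lower by -2.09 ± 0.16 (limma adjusted p = 6.2e-07), and all 12 D2 arrays lay below all 12 B6 arrays. H2-Q10 encodes a class I molecule that hepatocytes secrete. It was lower in wild-type D2 liver, at 4437, 3602 and 4283 against 6310, 6798 and 6156 in B6 (-0.65 ± 0.13, limma adjusted p = 0.0046). The exception was 1451593_at, shared by H2-Q5 and H2-K1, which read 2.96, 19.1 and 16.2 in wild-type B6 liver and 258, 211 and 190 in wild-type D2 liver. It was at least 10.9-fold higher in D2 there and at least 12.4-fold higher in wild-type duodenum.

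**Figure D2:**
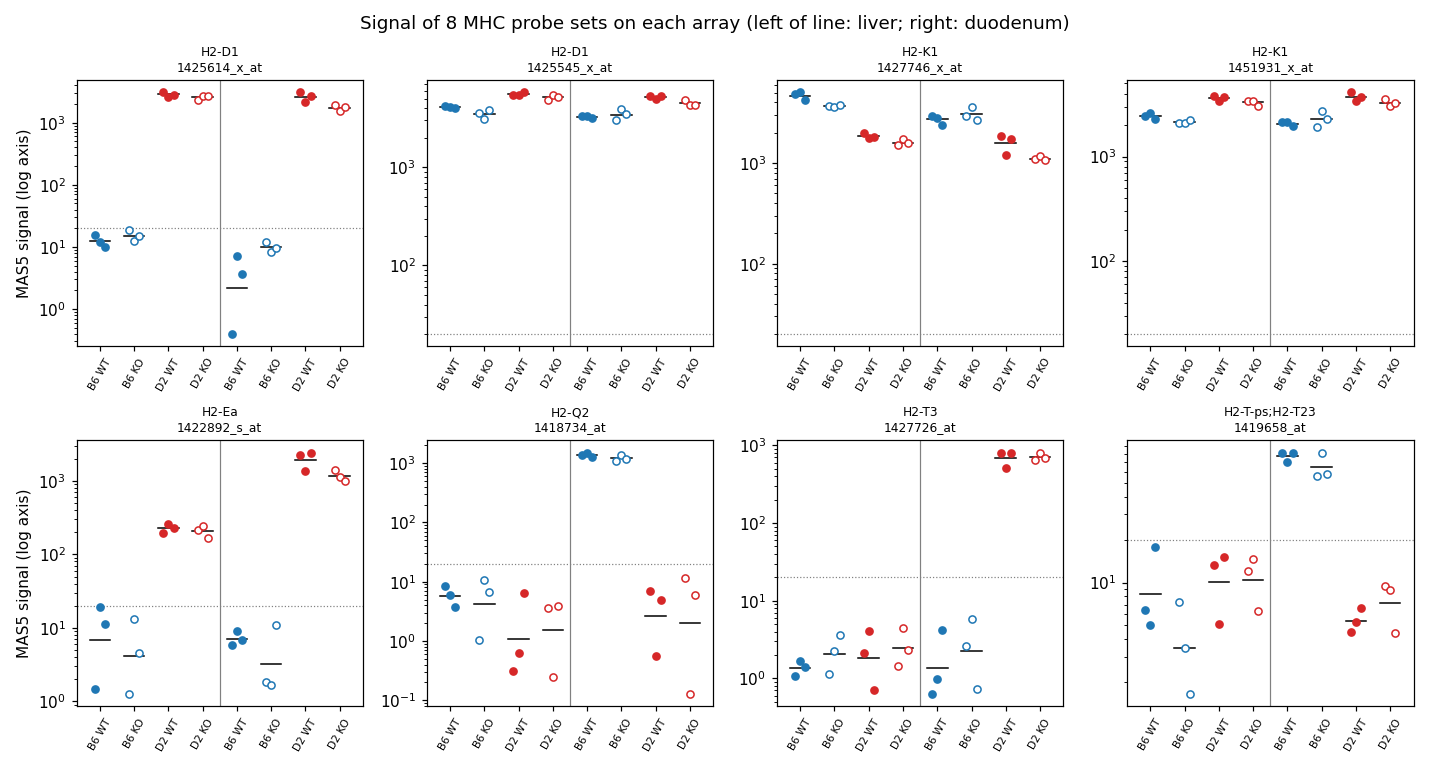
MAS5 signal (log axis) on every array for 8 probe sets of H2-D1, H2-K1, H2-Ea, H2-Q2, H2-T3 and H2-T23, with groups along the horizontal axis, filled circles for wild-type and open circles for Hfe-/- mice, bars at geometric means and a dotted line at a signal of 20. H2-D1 1425614_x_at separated the strains in both tissues, whereas H2-Q2 read 1097 or more on B6 duodenum arrays and H2-T3 517 or more on D2 duodenum arrays, both staying under 20 elsewhere.

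Among class II chains, H2-Ea separated the strains completely. On 1422892_s_at all B6 arrays lay between 1.25 and 19.5. The D2 signals were 194, 257 and 228 in wild-type liver, 216, 241 and 166 in Hfe-/- liver, 2224, 1341 and 2421 in wild-type duodenum and 1388, 1119 and 986 in Hfe-/- duodenum. D2 was at least 11.2-fold higher in wild-type liver (limma adjusted p = 9.8e-04) and at least 96.6-fold higher in wild-type duodenum (limma adjusted p = 1.3e-06). The second probe set, 1422891_at, read 68.3, 121 and 102 in wild-type D2 liver and 806, 504 and 941 in wild-type D2 duodenum, against at most 25.3 on any B6 array. Its strain difference was larger in duodenum, the liver difference minus the duodenum difference being -1.94 ± 0.54 (limma adjusted p = 0.065), a call that was lost with run as a block and without any 1 of 6 arrays.

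The other class II genes are known to be expressed in both strains. Stretches of 80 bases before the start of H2-Aa (from base 80) and H2-Eb1 (from base 82) are shown because both genes, the dim H2-Aa probe set 1443783_x_at aside, had their highest means in wild-type D2 and Hfe-/- B6 duodenum. Capitals mark CTGATTGG, the core of the Y box, which 3.83% of all windows and 11 of the 25 member symbols held on either strand.
H2-Aa, chr17:34287824-34287903, minus strand: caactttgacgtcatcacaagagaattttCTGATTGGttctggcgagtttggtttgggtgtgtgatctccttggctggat
H2-Eb1, chr17:34305785-34305864, plus strand: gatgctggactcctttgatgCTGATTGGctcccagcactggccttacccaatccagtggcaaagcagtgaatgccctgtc
H2-Aa was called in both directions by different probe sets. On 1452431_s_at it read 657, 613 and 461 in wild-type B6 duodenum and 2794, 1577 and 4198 in wild-type D2 duodenum, a difference of 2.21 ± 0.31 (limma adjusted p = 6.3e-04). On 1443783_x_at D2 was lower, with 4.9, 3.73 and 23.5 in wild-type and 14.9, 7.12 and 5.85 in Hfe-/- D2 duodenum against 38.6 to 126 on B6 duodenum arrays. The call was in Hfe-/- duodenum (at least 3.72-fold, limma adjusted p = 0.0062). H2-Ab1 (1450648_s_at) and H2-Eb1 (1417025_at) were called in no set, and in liver they differed between wild-type strains by 0.50 ± 0.25 and 0.15 ± 0.24. Another H2-Ab1 probe set, 1425477_x_at, was called higher in D2 in wild-type duodenum (1.88) and in no other set. Its difference in wild-type liver was 1.24. The H2-Ab1 probe set 1451721_a_at was called in no set. The H2-Aa probe sets 1435290_x_at and 1438858_x_at read lower in D2 than in B6 in wild-type liver (-0.69 ± 0.25 and -0.78 ± 0.21) and higher in wild-type duodenum (1.06 ± 0.28 and 1.08 ± 0.50). None of these 4 differences was called, and for 1435290_x_at the difference between tissues was -1.75 ± 0.42 (limma adjusted p = 0.028). With hybridization run as a block it was -1.56 and no longer called.

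Counted over the kept members, a strain difference (adjusted p up to 0.01) was called for 14 of 58 in wild-type liver, against 4.35% of all 28061 probe sets kept. Of these, 9 were higher and 5 lower in D2, against 1.97% and 2.39% of all. In Hfe-/- liver 16 were called against 4.73%, 10 of them higher (2.31% of all) and 6 lower (2.42%). In wild-type duodenum 19 were called against 3.37%, 15 higher (1.28%) and 4 lower (2.09%). In Hfe-/- duodenum 22 were called against 3.65%, 13 higher (1.79%) and 9 lower (1.86%). The wild-type and Hfe-/- mice are separate animals, while liver and duodenum came from the same ones. Class Ia held 9 of the 14 calls in wild-type liver, and class II helpers held none. In 12 members (20.7% of the 58) all 12 D2 arrays lay apart from all 12 B6 arrays, 8 above and 4 below, compared with 1.22% of all probe sets kept. A call in all 4 sets was reached by 8 members (13.8%) against 0.870% of all probe sets, and a call in any set by 29 (50.0%) against 9.53%. The 8 were both H2-Ea probe sets, the 3 all-or-none H2-D1 probe sets and the H2-Q5 and H2-K1 probe set, all higher in D2, and the H2-K1 probe set 1427746_x_at and the shared H2-K1 and H2-D1 probe set, both lower.

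The remaining called members divided into 7 called in both tissues but not in all 4 sets, 12 called in duodenum alone and 2 called in liver alone (H2-Q10 and the H2-Q5 probe set 1430802_at). Duodenum alone included H2-Q2, the H2-T3 probe sets, 1 of them shared with H2-T18, and the H2-T23 probe set above, and also H2-Ke6, which was higher in D2 in Hfe-/- duodenum (1.02 ± 0.15, limma adjusted p = 8.8e-04) and not called in wild-type duodenum (0.13 ± 0.15). A call in 1 tissue does not show a difference between tissues, and that difference was called at 0.1 for 4 members, H2-T3 1427726_at, H2-T23 1419658_at, H2-Ea 1422891_at and H2-Aa 1435290_x_at, against 3.46% of all probe sets. The suffix of an Affymetrix name tells how its probes were chosen, and _x_at marks sets with some probes that also match other transcripts. Of the 20 members with this suffix 16 were called in some set and 5 in all 4, compared with 8 and 2 of the 24 plain _at members. Of the 6 _s_at members 3 were called in some set, and of the 8 _a_at members 2. Most class Ia members carry the suffix _x_at, so that suffix and gene cannot be told apart here. Shares of all probe sets called by suffix are not given, and the part of the suffix was not tested. In Hfe-/- duodenum, the 2 B6 and 3 D2 arrays that shared a run gave the same direction for all 22 called members. In wild-type liver the 1 D2 and 3 B6 arrays that shared a run did so for all 14. These arrays are among those that gave the calls, so the shared direction is no separate test of run. With run as a block over all arrays of a tissue, 10 of 58 members were called in wild-type duodenum and 6 in Hfe-/- liver. In duodenum only the Hfe-/- B6 group was in both runs, array 1 in one and arrays 2 and 3 in the other. The run term there rests on these arrays, and within wild-type mice strain and run cannot be told apart.

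**Figure D3:**
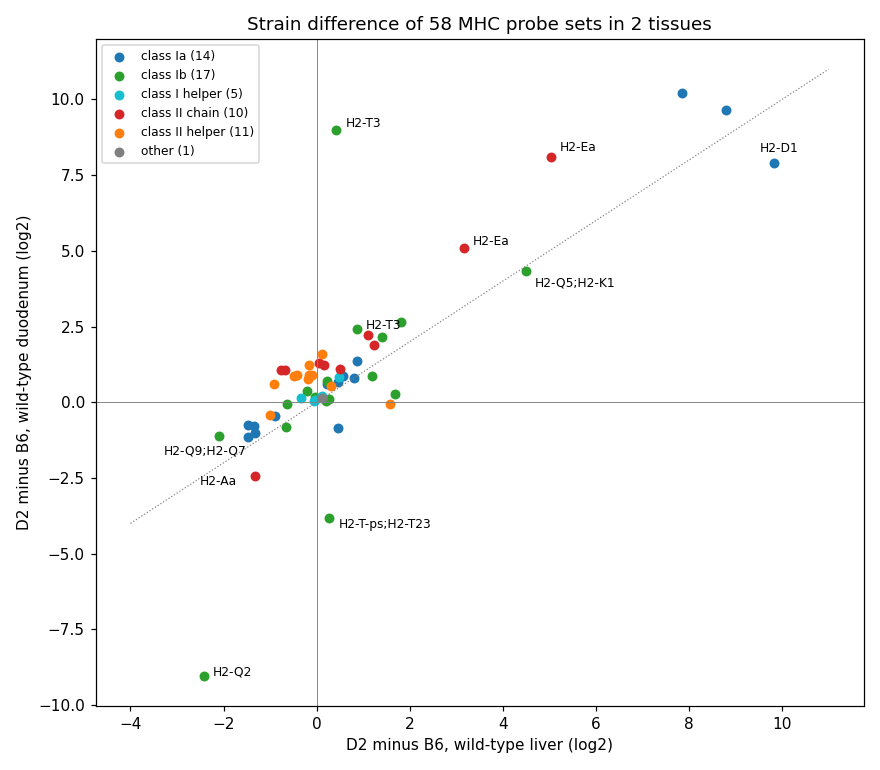
Difference between strains (D2 minus B6, log2) of the 58 kept members in wild-type liver (horizontal axis) and wild-type duodenum (vertical axis), with a dotted line where both are equal. The H2-D1 and H2-Ea probe sets at the upper right were high in D2 in both tissues, and H2-T3 1427726_at and H2-Q2, under 20 in liver of both strains, lay far from the dotted line, at least 34.6-fold higher and 69-fold lower in D2 duodenum. Points against a group under 20 are fitted values with no exact size.

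Few members differed between genotypes in liver. In D2 liver 2 of 58 members passed an adjusted p of 0.1, both lower in Hfe-/- mice, against 2.75% of all probe sets called and 1.4% called lower. The probe set 1449556_at of H2-T-ps and H2-T23 read 3372, 3510 and 3460 in wild-type D2 and 2611, 2624 and 2674 in Hfe-/- D2. The genotypes did not overlap, and the gene was lower by -0.39 ± 0.07 (limma adjusted p = 0.021). In B6 liver the signals were 2742, 3013 and 2855 in wild-type and 2584, 2542 and 2632 in Hfe-/- mice, also without overlap (-0.15 ± 0.07, limma adjusted p = 0.47). The effects of the strains differed by -0.24 ± 0.11 (limma adjusted p = 0.48), so that a difference between strains was not shown. The probe set of H2-T9, H2-T22 and H2-T10, of which T22 and T10 are ligands of gamma delta T cells, read 829, 858 and 818 in wild-type and 683, 725 and 603 in Hfe-/- D2 liver (1449875_s_at). It was lower by -0.32 ± 0.08 (limma adjusted p = 0.08), and its B6 signals overlapped (700, 760 and 722 against 769, 759 and 706). This second call was lost when any 1 of 8 liver arrays was left out, namely each wild-type array of either strain and Hfe-/- D2 arrays 2 and 3. With hybridization run as a block neither was called, at -0.39 and -0.29. Within the one run that held both genotypes of D2 (1 wild-type and 3 Hfe-/- arrays) both kept their direction. Those arrays are among the ones that gave the calls, so this is no separate test.

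In B6 liver 0 of 58 members were called by limma, with 7 at an unadjusted p under 0.05, against 1.02% of all probe sets called. The interaction in liver called 0 members, with 3 at an unadjusted p under 0.05, against 0.214% of all probe sets. The groups of D2 liver did not overlap for 19 members, 18 of them lower in Hfe-/- mice, against 17.7% of all probe sets in either direction and 8.1% lower. These included 7 of 14 class Ia members, whose median was -0.16 beside 0.02 for all probe sets. None of the class Ia members was called, at adjusted p values of 0.19 or more by limma. Of the class II members 7 lay under 20 in both genotypes of D2 liver, and Cd74 read 210, 267 and 248 in wild-type and 228, 310 and 195 in Hfe-/- mice, which overlapped.

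In duodenum several class II genes differed between genotypes in opposite directions in the 2 strains, but no member passed the test. Cd74 (1425519_a_at) read 1605, 1555 and 1515 in wild-type B6 and 2532, 3982 and 2538 in Hfe-/- B6. In D2 it read 2809, 1993 and 4289 in wild-type and 1718, 1446 and 1231 in Hfe-/- mice. Hfe-/- arrays lay above all wild-type arrays in B6 and below them all in D2. The differences were 0.92 ± 0.24 in B6 (limma adjusted p = 0.86) and -0.99 ± 0.24 in D2 (limma adjusted p = 0.14), and the interaction was -1.91 ± 0.34 (limma adjusted p = 0.15).

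The chains followed the same order. H2-Ab1 (1450648_s_at) read 620, 651 and 564 in wild-type B6, 1055, 1880 and 1096 in Hfe-/- B6, 1516, 749 and 1999 in wild-type D2 and 602, 505 and 453 in Hfe-/- D2. H2-Eb1 (1417025_at) read 730, 850 and 757, then 1126, 1951 and 1092, then 1891, 1149 and 2727, and then 1106, 847 and 756 in the same 4 groups. H2-Aa (1435290_x_at) read 1423, 1506 and 1456, then 2292, 3984 and 2097, then 3148, 1924 and 4689, and then 1617, 1230 and 1150. On each of these 3 probe sets the genotypes did not overlap in either strain. Among other probe sets of these genes, H2-Ab1 1425477_x_at and H2-Aa 1438858_x_at and 1443783_x_at overlapped in D2. Ciita was dim on 1421210_at, at 34.3, 29.4 and 19.5 in wild-type B6, 24.1, 49 and 36.8 in Hfe-/- B6, 43.7, 35.8 and 45.2 in wild-type D2 and 33.3, 28.8 and 30.9 in Hfe-/- D2. It differed by 0.38 ± 0.28 in B6 and -0.42 ± 0.28 in D2. H2-Ea signals were near background in B6, so that no opposite pattern could be read for it. In D2 it differed by -0.75 ± 0.54 on 1422892_s_at, where the genotypes overlapped. On 1422891_at it read 806, 504 and 941 in wild-type and 437, 452 and 472 in Hfe-/- D2, lower without overlap.

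Of the 21 kept class II members, 10 lay lower in Hfe-/- than in wild-type D2 duodenum without overlap and 12 lay higher in B6 duodenum, 2 lower. Over all probe sets, 16.4% did not overlap between genotypes in D2 duodenum (6.66% lower) and 11.4% in B6 duodenum (5.31% higher, 6.13% lower). The class II median was -0.99 in D2 and 0.86 in B6, beside 0.03 and -0.01 for all probe sets. By limma 0 of 58 members were called in D2 duodenum (24 at an unadjusted p under 0.05) against 0.378% of all probe sets. In B6 duodenum 0 were called (15 unadjusted) against 0.0107%, and for the interaction 0 (28 unadjusted) against 0.0143%. With 3 arrays against 3 an exact permutation test cannot give a p below 0.1. Class I members had a median of -0.34 in D2 duodenum (-0.21 with groups under 20 set to 20), and 12 of 36 lay lower without overlap. Cd74 differed by 0.89 ± 0.24 between D2 and B6 in wild-type (limma adjusted p = 0.043) and by -1.02 ± 0.24 in Hfe-/- duodenum (limma adjusted p = 0.019). Neither passed the threshold of 0.01, and these comparisons share their arrays with those of genotype.

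The 10 class II probe sets with a geometric mean signal of at least 100 in duodenum, H2-Ea left out, were averaged on the log2 scale to follow single arrays. They belong to H2-Aa, H2-Ab1, H2-Eb1, Cd74, H2-DMa and the H2-DMb pair. Wild-type D2 array 3 was the highest of 12 for 8 of the 10, and Hfe-/- D2 array 3 the lowest for 7. The mean differed by -1.30 between Hfe-/- and wild-type D2 and by 1.06 between Hfe-/- and wild-type B6. With Hfe-/- D2 array 1 alone, the array whose acinar markers were like those of the others, it differed by -0.96. Within the run that held 3 wild-type and 1 Hfe-/- B6 arrays, it differed by 0.75. Leaving out wild-type D2 array 2 brought 12 members past the threshold in D2 and 11 for the interaction. Leaving out Hfe-/- D2 array 1 brought 9 and 10. Leaving out Hfe-/- B6 array 2 brought 8 in D2, and leaving out wild-type D2 array 3 brought 4 for the interaction. The share of all probe sets called in each of these fits is not given here. Every other duodenum array left out singly gave no call among the 10 probe sets in either comparison. Without Hfe-/- D2 array 2 their limma adjusted p values in D2 ran from 0.373 to 0.528. Without array 3 of that group they ran from 0.433 to 0.611. With both Hfe-/- D2 arrays 2 and 3 left out, the 10 probe sets had adjusted p values from 0.827 to 0.928 in limma and differences from -1.19 to -0.71.

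Markers of immune cells, among them cells that carry class II, also varied between these arrays. Means of marker lists over the 12 duodenum arrays ran from 3.4 to 4.93 for 5 B cell genes, from 4.38 to 5.31 for 4 dendritic cell genes and from 4.45 to 5.37 for 10 macrophage genes. No gene of these lists was called in either genotype comparison of duodenum. The B cell mean was lowest on Hfe-/- D2 array 3 (3.4), followed by array 2 (3.84). T cell markers were lowest on Hfe-/- D2 arrays 2 and 3, at 4.51 and 5.37, and plasma cell markers likewise, at 7.19 and 6.87 against 7.79 to 8.39 elsewhere. The B cell markers did not all follow 1 order, and all were dim. Cd79a and Cd79b read 38.5 and 55.5 in wild-type D2 and 23.9 and 30.6 in Hfe-/- D2. They read 24.1 and 34 in wild-type B6 and 23.8 and 38.8 in Hfe-/- B6. In the same group order Cd22 read 27.1, 23.2, 18.8 and 25.8. Ms4a1 read 16, 10.2, 6.48 and 3.9, and Fcrla 17.3, 12, 16 and 20.8, highest in Hfe-/- B6. Enterocyte markers stayed within 11.8 to 12.4. The part of cell composition in the class II pattern was not tested.

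**Figure D4:**
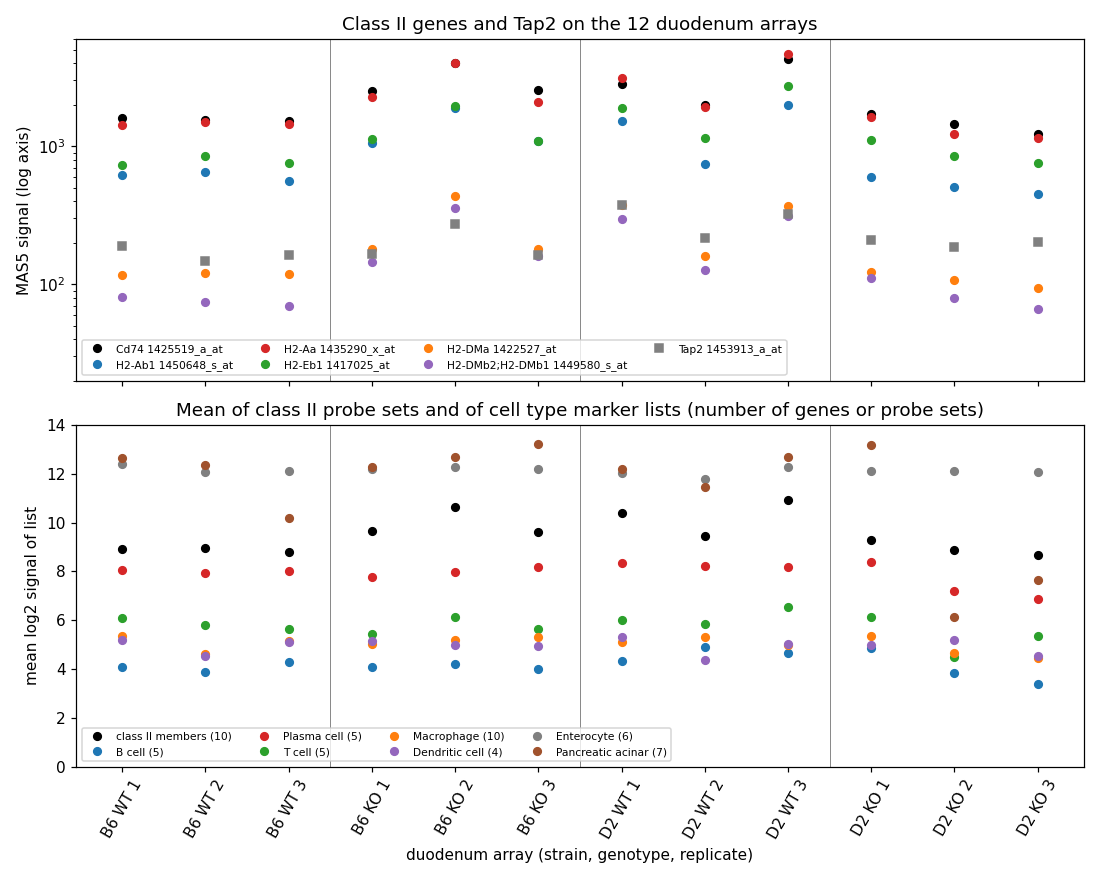
Signals of 6 class II probe sets and Tap2 on each of the 12 duodenum arrays (upper panel, log axis) and, below, the mean log2 signal of 10 class II probe sets and of 7 marker lists on the same arrays. Class II points were higher on Hfe-/- than on wild-type arrays in B6 and lower in D2, and the acinar list dropped to 6.14 and 7.66 on Hfe-/- D2 arrays 2 and 3.

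Between the tissues, class II and class I genes took different courses. Of the 21 class II members, 17 had every wild-type liver signal below every wild-type duodenum signal in B6 mice and 19 in D2 mice. The share of all probe sets that separated in this way is not given here, so these counts stand without a background. H2-Ea on 1422892_s_at, under 20 in both tissues of B6, had no order there. At the test, 13 were called lower in B6 and 17 in D2 at the threshold of 0.01, where 26.2% of all probe sets were lower in either strain and 18.5% (B6) or 18.2% (D2) higher. Their medians of fitted differences were -1.98 and -3.03, beside -0.21 and -0.20 for all probe sets. With groups under 20 set to 20, as for 8 members with dim liver signals in either strain, the class II medians were -1.03 and -2.99. Over all members, 34 of 58 were called in each strain (10 higher and 24 lower in B6 liver, 6 and 28 in D2 liver), against 44.7% of all probe sets in B6 and 44.4% in D2. With run as a block 11 were called in B6 and 14 in D2. Cd74 was lower in liver by -2.60 ± 0.24 in B6 and -3.58 ± 0.24 in D2, with 191, 328 and 271 in wild-type B6 liver. Ciita on 1421210_at was under 20 on every liver array and at 19.5 to 49 on duodenum arrays, while its other kept probe set, 1447075_at, lay at 26.8 or less on every array. Macrophage markers, by contrast, averaged 7.13 to 8.59 in liver and 4.45 to 5.37 in duodenum. Of these, Clec4f, Cd5l, Vsig4 and Marco had mean signals under 20 in every duodenum group, which widens the gap between the averages. The median tissue difference of the list was 1.06 in wild-type B6 and 0.83 in wild-type D2.

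B2m was higher in liver, by 0.67 ± 0.12 in B6 (limma adjusted p = 4.2e-05) and 0.59 ± 0.12 in D2 (limma adjusted p = 2.1e-04), with 7944 to 12133 on liver and 5607 to 8182 on duodenum arrays. After quantile normalization, which moved the median of all probe sets by over 0.2, these differences were 0.02 and 0.05 and no longer called. H2-Q10 was the member with the largest excess in liver, at 3602 to 7487 there and 10.4 to 52.8 in duodenum (7.65 ± 0.29 in B6 and 7.83 ± 0.29 in D2). The peptide loading genes went the other way. Tap2 was lower in liver by -1.65 ± 0.21 in B6 and -2.01 ± 0.21 in D2, and Tapbp (1421812_at) by -0.42 ± 0.12 and -0.51 ± 0.12. H2-T18 was at least 25.4-fold lower in B6 liver, where wild-type signals lay under 20, and lower by -4.83 ± 0.57 in D2. Class Ia members had medians of 0.28 in B6 (0.12 with groups under 20 set to 20) and -0.05 in D2, with 4 called higher and 2 lower in B6 liver and 0 higher and 2 lower in D2 liver. H2-Ke6 was higher in liver by 1.70 ± 0.12 in B6 and 1.69 ± 0.12 in D2.

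**Figure D5:**
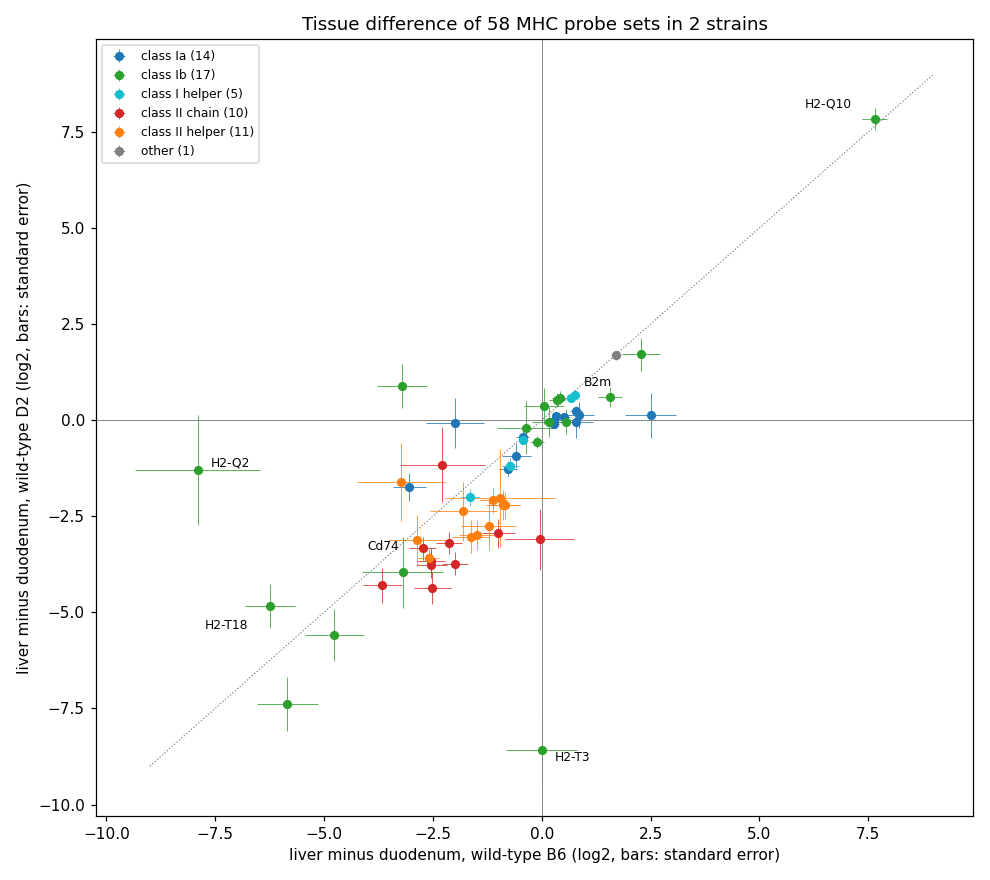
Difference between tissues (liver minus duodenum, log2, with standard errors) of the 58 kept members in wild-type B6 (horizontal axis) and wild-type D2 mice (vertical axis). Class II members lay near or below 0 in both strains, H2-Q10 at 7.65 and 7.83, and H2-T3 1427726_at at 0 in B6, where both tissues were under 20, and at least 34.6-fold lower in D2 liver. Points against a group under 20 are fitted values with no exact size.

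Of 42 other genes of antigen processing and class II control, 38 were kept. In D2 liver 2 were higher in Hfe-/- mice, the endoplasmic reticulum chaperones Calr (0.54, limma adjusted p = 0.057) and Pdia3 (0.48, limma adjusted p = 0.051), both of the class I loading complex, against 2.75% of all probe sets called in either direction, and the list median was -0.05. No listed gene was called by genotype in B6 liver or in either strain's duodenum. Some had duodenum means in the opposite order seen for class II. In wild-type B6, Hfe-/- B6, wild-type D2 and Hfe-/- D2, Psmb9 averaged 478, 730, 1139 and 658. Psmb8 averaged 693, 1005, 1237 and 799, and Tap1 225, 342, 317 and 159. Others did not, such as Jak1 at 811, 792, 842 and 909. The list median was -0.10 in D2 and 0.04 in B6 duodenum, beside 0.03 and -0.01 for all probe sets. By strain, Psmb8, an immunoproteasome subunit encoded in the complex, was higher in D2 by 0.75 in wild-type and 0.85 in Hfe-/- liver. Its partner Psmb9 was higher by 1.38 in Hfe-/- liver, and the lysosomal proteases Ctsb and Ctsl differed by 0.43 in wild-type liver and -0.57 in wild-type duodenum. Between tissues 8 were higher and 16 lower in B6 liver, against 18.5% and 26.2% of all probe sets, and 10 and 16 in D2 liver, against 18.2% and 26.2%. Those lower in liver of both strains included Psmb8 (-1.76 in B6), Psmb9 (-1.63), Tap1 (-0.97), Ifi30 (-2.31), a thiol reductase of the class II pathway, and Ctss (-1.78), which degrades Cd74. Nlrc5, the class I counterpart of Ciita, was higher in liver, by 1.56 in B6 and 1.23 in D2, as was Cd1d1, which presents lipids (6.62 and 6.71).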

How the data were processed

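RNA of liver and duodenum was hybridized to Affymetrix Mouse Genome 430 2.0 arrays. The deposited values are MAS5 signal intensities on a linear scale, which the authors scaled on each array to a mean of 100 after trimming 2% of signals at either end. The MAS5 version is not given in the sources used here, and detection calls were not used. Hybridization run and day came from the instrument experiment files deposited for each array, and no date is given. No depth applies to arrays, whose number limits the precision. Samples labelled as replicates were separate mice.

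Signals, the smallest being 0.0162, were taken as log2 here, with no pseudocount. After 64 control probe sets were left out, 28061 of 45101 probe sets, those that reached 20 on 3 arrays of liver or of duodenum, were fitted with limma 3.58.1 (lmFit, eBayes with trend, R 4.3.3, with the data.table package in version 1.17.8). Each tissue was fitted over its 12 arrays for genotype, interaction and strain, and all 24 arrays were fitted for tissue, with Benjamini-Hochberg adjustment over all probe sets kept. Thresholds were an adjusted p of 0.1 for genotype and interactions and 0.01 for strain and tissue. Errors after ± are limma standard errors of a log2 difference, and marker list means are means of log2 signals. Where a group lay entirely under a signal of 20, the fold was set against 20. The smallest p that an exact permutation of 3 arrays against 3 can give is 0.1. Scripts were tested on simulated data with known changes.

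Gene symbols came from the platform annotation table, which can be old, and promoters from RefSeq (GRCm38.p6). Tables were handled with python 3.11.15 and pandas 2.3.3 and drawn with matplotlib 3.10.9. Members, gene lists and tests were chosen with earlier results of these data known. Values on every array are given for members called by genotype, for the largest strain differences in each direction and for the brightest probe set of the main genes. Alternatives were a pseudocount of 16, quantile normalization, no filter or a minimum of 100, eBayes without trend, fits of only the arrays compared, blocks for replicate number, day and run, and leaving out arrays. Blocking by run and leaving out Hfe-/- D2 duodenum arrays 2 and 3 were chosen after seeing the data, as was blocking by mouse.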

Additional observations from a re-analysis of the deposited data

Results flagged for a closer look

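The strain difference (D2 minus B6) of 4 probe sets differed between liver and duodenum of wild-type mice by the interaction term of the fit over 24 arrays, given here as the liver difference minus the duodenum difference on the log2 scale. For H2-T3 (1427726_at) it was -8.57 (limma adjusted p = 2e-04), with signal above 20 on D2 duodenum arrays alone, so that the fitted size is not exact. For H2-T-ps and H2-T23 (1419658_at) it was 4.11 (limma adjusted p = 0.0063), with signal above 20 on B6 duodenum arrays alone, and again no exact size. Neither call was lost under any alternative run. For H2-Aa (1435290_x_at) it was -1.75 (limma adjusted p = 0.028), with lower signal in D2 liver and higher signal in D2 duodenum, and it was lost with hybridization run as a block. For H2-Ea (1422891_at) it was -1.94 (limma adjusted p = 0.065), with both tissues higher in D2. That call was lost with day or run as a block, with only the arrays compared, without Hfe-/- D2 duodenum arrays 2 and 3, and without any 1 of 6 single arrays (liver B6 wild-type 2 or 3, liver D2 wild-type 1, duodenum B6 wild-type 1, duodenum D2 wild-type 1 or 3), at -1.56 to -1.93. Wild-type duodenum arrays of the strains were hybridized in different runs, which cannot be told apart from strain there.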

How the results depend on the processing

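Of 145 calls on members in the 13 comparisons, 1 turned its direction under an alternative, the difference between tissues of the probe set shared by Gm38417, H2-Q2 and H2-D1 (1422348_at) in B6, which was under 20 in wild-type liver and at 25.4 or less in wild-type duodenum, from -3.20 to 0.62 with hybridization run as a block. That block, added after seeing the data, kept 70 calls and weakened 74, a pseudocount of 16 kept 144, quantile normalization 131, no filter 141, no trend 119 and only the arrays compared 123. Genotype in D2 liver gave 2 calls, and 1 with no filter, 0 with no trend, 1 with only the arrays compared, 1 with day as a block, 0 with run as a block and 1 to 2 with single arrays left out. Genotype in B6 liver gave 0 calls, and 1 after quantile normalization, 1 with a minimum of 100 and 0 to 2 with single arrays left out. In D2 duodenum it gave 0, and 1 with a pseudocount of 16, 1 with a minimum of 100 and 0 to 12 with single arrays left out. In B6 duodenum single arrays left out gave 0 to 1, and the interactions gave 0 to 0 in liver and 0 to 11 in duodenum. Strain in wild-type liver gave 14, and 9 with no trend and 12 to 15 with single arrays left out. In Hfe-/- liver it gave 16, and 9 with no trend, 6 with run as a block and 14 to 16 with single arrays left out. In wild-type duodenum it gave 19, and 10 with run as a block, a term that rests on the Hfe-/- B6 arrays, and 15 to 27 with single arrays left out. In Hfe-/- duodenum it gave 22, and 12 without Hfe-/- D2 arrays 2 and 3 and 18 to 24 with single arrays left out. The strain difference differed between tissues for 4, and for 12 with a pseudocount of 16, 8 after quantile normalization, 2 with run as a block and 3 to 12 with single arrays left out, the 12 without duodenum D2 wild-type array 2. Liver against duodenum gave 34 in B6 (11 with run as a block, 27 to 36 with single arrays left out) and 34 in D2 (14 with run as a block, 31 to 36 with single arrays left out). Except where an alternative tests fewer arrays or probe sets by construction, the cause was not tested.

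Replicate numbers gave no sign of pairing. Between groups of 1 tissue, which share no mouse, deviations from group means correlated at -0.02 to 0.05 for equal numbers in liver. In duodenum they correlated at -0.20 to 0.12, where different numbers reached 0.18. Between liver and duodenum of 1 group they correlated at -0.02 to 0.03 for equal numbers and -0.04 to 0.03 for different ones. The labels do not say which of these arrays share a mouse, and the main tissue fits held no block for it. With the number taken as the mouse, 67 of 72 calls of those fits were kept. With a replicate block 139 of the 145 calls were kept, and genotype in D2 liver gave 3 calls. Quantile normalization moved the median of all probe sets between tissues from -0.21 to 0.02 in B6 and from -0.20 to 0.01 in D2. Day as a block could not be fitted for duodenum, whose arrays were all of 1 day. Signals under 20 have no order, which limits each all-or-none difference to a lower bound.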
